A study of Mus musculus with 10 samples.

Results

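The genes examined were 10 genes of the tight junction: the claudin genes *Cldn1*, *Cldn2*, *Cldn3*, *Cldn4*, *Cldn7*, *Cldn8*, *Cldn15* and *Cldn23*, the occludin gene *Ocln* and *Tjp1*, which encodes ZO-1. They were taken by gene symbol from the deposited table, and all 10 were found once among its 56691 genes and had enough counts to be tested, as did 16545 genes in all. RNA sequencing measured poly(A) RNA of colon tissue from male C57/BL6 mice, 8 weeks old when obtained, in 2 groups of 5. The DSS group drank 3% dextran sulfate sodium (DSS), which injures the colonic epithelium and causes colitis, for 7 days. The ceAF group drank the same DSS and was then given 15 mL/kg of chick early amniotic fluid (ceAF) by gavage for 10 days. Mice without DSS and mice given mesalazine are not analysed here, so each value compares DSS followed by ceAF with DSS alone. The text of the study does not state the day on which the DSS mice were sampled, or whether they were given a vehicle by gavage. It does compare body weight with the DSS group after the 7 days of DSS. Libraries held 16275884 to 19901549 counted reads in DSS mice and 14676471 to 18811795 in the ceAF group.

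Tight junctions close the space between neighbouring epithelial cells. Claudins are membrane proteins that form the strands of the junction: sealing claudins tighten it, whereas claudin-2 and claudin-15 form channels that let small cations, and in the case of claudin-2 also water, pass between cells. Occludin sits in the same strands, and ZO-1 is a scaffold inside the cell that ties claudins and occludin to actin. Because the study measured occludin and ZO-1 protein in the colon as signs of barrier repair, the comparison asks whether the RNA of these genes, and the balance of pore-forming and sealing claudins, differed between the groups.

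No member differed between the ceAF and DSS groups after adjustment over all genes. *Ocln* and *Tjp1* RNA were a little higher in the ceAF group, only *Ocln* at an unadjusted p under 0.05, and the 8 claudins had fold changes smaller than their standard errors. What did vary widely was *Cldn8*, and it varied between mice within both groups. The interval of its log2 fold change ran from −1.76 to 1.01, so a difference between the groups was neither shown nor excluded. The counts were 0 of 10 members at an adjusted p under 0.05 in edgeR's quasi-likelihood test, against 0 of 16545 genes tested (0%). At an unadjusted p under 0.05 there was 1 member of 10, *Ocln*, against 1146 of 16545 genes (6.93%), a share at which the members' count is no result about them. In 0 of 10 members did the groups separate without overlap in CPM, against 205 of 16545 genes (1.24%). Among the members 4 had less RNA with ceAF and 6 had more (median log2 fold change 0.08, from 0.03 without DSS-1 to 0.09 without DSS-2), while of all genes tested 48.6% had less (median 0.01).

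Several limits apply to these counts. DESeq2 called 31 genes at an adjusted p under 0.05, none of them a member, but it was run on 32419 genes without the filter on low counts. On the genes that pass the filter, a setting added after seeing the data, DESeq2 called 30. Of the 1146 genes at an unadjusted p under 0.05, 607 had less RNA with ceAF and 539 had more, and with limma-trend on the deposited FPKM 701 were lower and 308 higher. Leaving out a mouse moved the count of 1146 genes, to 712 without DSS-1 and to 1872 without ceAF-1. In bulk tissue, fewer cells of a type and less RNA per cell cannot be told apart.

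*Ocln* (ENSMUSG00000021638, chromosome 13, 100633015 to 100689226 on the minus strand; positions are those of the deposited table, whose genome build is not named) encodes occludin. Its normalized level, in TMM-normalized CPM (counts scaled to library size), was 81.7, 107, 103, 93.8 and 89.6 CPM in DSS-1 to DSS-5 and 109, 114, 116, 120.4 and 101 CPM in ceAF-1 to ceAF-5. Each ceAF mouse other than ceAF-5 lay above all DSS mice, ceAF-5 lay below DSS-2 and DSS-3, and DSS-1 was the lowest of all, so the groups overlapped. The log2 fold change, ceAF against DSS, was 0.24 (standard error 0.10, 95% interval 0.02 to 0.45), with an unadjusted p of 0.0318 and a Benjamini-Hochberg adjusted p of 0.694 in edgeR's quasi-likelihood test. Without DSS-1 it was 0.19 with an unadjusted p of 0.0738, and the unadjusted p was also above 0.05 without DSS-4 (0.0596), DSS-5 (0.0545), ceAF-2 (0.0510), ceAF-3 (0.0584) or ceAF-4 (0.0667).

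*Tjp1* (ENSMUSG00000030516, chromosome 7, 64945913 to 65177529 on the minus strand) encodes the scaffold ZO-1. Its level was 164, 198, 215, 179 and 211 CPM in DSS-1 to DSS-5 and 173, 235, 273, 241 and 208 CPM in ceAF-1 to ceAF-5. The ceAF group reached higher in ceAF-3, ceAF-4 and ceAF-2, but ceAF-1 was lower than every DSS mouse other than DSS-1, and the groups overlapped. The log2 fold change was 0.23 (standard error 0.13, 95% interval −0.07 to 0.52), with an unadjusted p of 0.116 and a Benjamini-Hochberg adjusted p of 0.759 in edgeR's quasi-likelihood test. Without ceAF-1 the log2 fold change was 0.31 and the unadjusted p 0.0234, and in each of the other fits without 1 mouse the unadjusted p was above 0.05. Per mouse, *Ocln* and *Tjp1* tended to go together: Pearson's r was 0.701 (permutation p 0.0247, adjusted 0.17) and Spearman's rho 0.685 (permutation p 0.0362, adjusted 0.214), and without DSS-1 and DSS-5, the mice farthest from the median of *Ocln*, r was 0.698. That is 1 of 55 relations computed across the 10 mice with both groups pooled, 45 between members and 10 between a member and *Hoxb13*. The adjusted values are over those 55 by Benjamini-Hochberg from 100000 permutations each, two-sided. The relations were not among the tests planned beforehand. Mice were permuted across the groups, so a difference between groups can enter r, and *Ocln* and *Tjp1* were both somewhat higher with ceAF. The part of the groups in r was not tested.

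**Figure D1:**
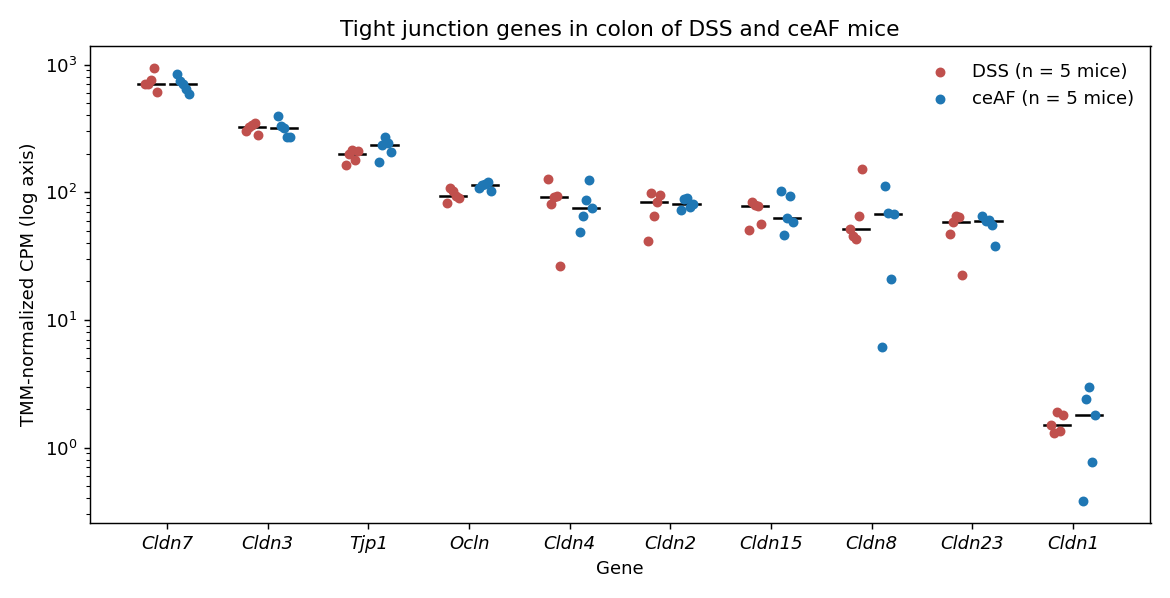
TMM-normalized CPM (log axis) of the 10 tight junction genes in colon, with 1 point per mouse, DSS mice in red and ceAF mice in blue (n = 5 each), and a black line at each group's median. The groups overlapped in all 10 genes, and the spread is widest in *Cldn8*, from 6.18 to 152 CPM.

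Levels of different genes can be compared only per length, so the claudins were also set out in TMM-normalized RPKM, which divides CPM by exonic length in kilobases. Mean RPKM over the 10 mice, ± SD, was 372 ± 54.5 for *Cldn7* and 252 ± 31.6 for *Cldn3*, far above the other claudins. It was 45.2 ± 17.0 for *Cldn4*, 33.5 ± 8.83 for *Cldn15*, 29.0 ± 7.57 for *Cldn23*, 26.9 ± 18.0 for *Cldn8* and 23.9 ± 5.04 for *Cldn2*. These neighbours in the order lay within their spread of one another, whereas *Cldn1*, at 0.335 ± 0.154 RPKM and 5 to 54 counts per mouse, was near the lower limit of detection. *Tjp1* (26.9 ± 4.33 RPKM) and *Ocln* (24.5 ± 2.91 RPKM) lay in the same range as the middle claudins. Of the summed RPKM of the 8 claudins, *Cldn7* held 47.9 ± 2.26% in DSS mice and 46.8 ± 1.34% in ceAF mice (SD, n = 5), and *Cldn3* held 31.9 ± 1.36% and 32.6 ± 2.08%. The sum itself was 796 ± 93.7 RPKM in DSS mice and 769.7 ± 85.3 RPKM in ceAF mice, a difference smaller than the SD of either group.

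**Figure D2:**
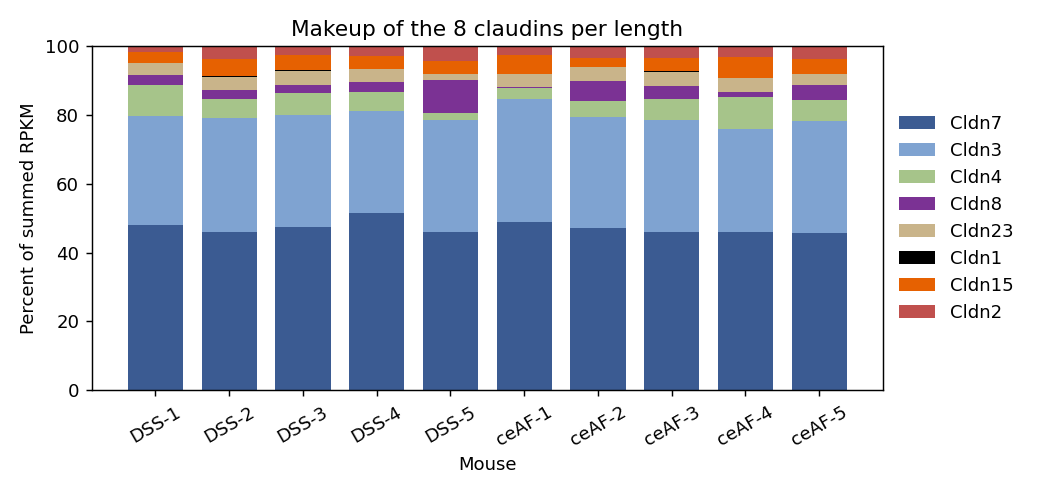
Percent of the summed TMM-normalized RPKM of the 8 claudins held by each claudin in each mouse (bars, 1 per mouse). *Cldn7* and *Cldn3* fill most of every bar, the pore-forming *Cldn2* and *Cldn15* hold 4.80 to 9.24%, and the share of *Cldn8* runs from 0.297% in ceAF-1 to 9.49% in DSS-5.

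Of the pore-forming claudins, *Cldn2* (ENSMUSG00000047230, chromosome X, 138701577 to 138712135 on the plus strand) encodes the channel for cations and water. Its level was 41.5, 98.7, 65.3, 83.8 and 94.7 CPM in DSS-1 to DSS-5 and 72.4, 89.2, 90.0, 76.9 and 81.4 CPM in ceAF-1 to ceAF-5. The ceAF mice lay within a narrow range inside that of the DSS mice, of which DSS-1 was the lowest and DSS-2 the highest. The log2 fold change was 0.09 (standard error 0.20, 95% interval −0.36 to 0.54), with an unadjusted p of 0.653 and a Benjamini-Hochberg adjusted p of 0.959 in edgeR's quasi-likelihood test, and without DSS-1 it turned to −0.06.

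*Cldn15* (ENSMUSG00000001739, chromosome 5, 136995470 to 137004712 on the plus strand), the cation channel of the intestinal epithelium, was at 50.6, 83.4, 79.6, 77.9 and 56.2 CPM in DSS-1 to DSS-5 and 102, 46.4, 63.3, 92.7 and 58.4 CPM in ceAF-1 to ceAF-5. It was highest in ceAF-1 and ceAF-4 and lowest in ceAF-2, so the ceAF mice spanned the whole range of the DSS mice. The log2 fold change was 0.06 (standard error 0.23, 95% interval −0.44 to 0.56), with an unadjusted p of 0.794 and a Benjamini-Hochberg adjusted p of 0.979 in edgeR's quasi-likelihood test. Its sign turned without DSS-1 (−0.03), without ceAF-1 (−0.09) and without ceAF-4 (−0.03).

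Among the sealing claudins, the abundant pair *Cldn3* and *Cldn7* differed little from mouse to mouse. *Cldn3* (ENSMUSG00000070473, chromosome 5, 135015068 to 135016326 on the plus strand), a strand protein of most of the gut epithelium, was at 301, 327, 337, 349 and 278 CPM in DSS-1 to DSS-5 and 397, 329, 318, 271 and 269 CPM in ceAF-1 to ceAF-5. *Cldn7* (ENSMUSG00000018569, chromosome 11, 69855605 to 69858711 on the plus strand), which also lies along the basolateral membrane, was at 708, 708, 755, 941 and 610.2 CPM in DSS-1 to DSS-5 and 843, 739.9, 700.0, 648 and 585 CPM in ceAF-1 to ceAF-5. In the ceAF group both were highest in ceAF-1 and lowest in ceAF-5, in the DSS group both were highest in DSS-4 and lowest in DSS-5, and the groups overlapped in each. The log2 fold change was −0.01 (standard error 0.13, 95% interval −0.28 to 0.27, unadjusted p 0.961) for *Cldn3* and −0.08 (standard error 0.14, 95% interval −0.40 to 0.23, unadjusted p 0.576) for *Cldn7*. Over the mice, Pearson's r was 0.871 (permutation p 0.00108, adjusted 0.0198) and Spearman's rho 0.964 (permutation p 0.00007, adjusted 0.00385), and r was 0.839 without ceAF-1 and ceAF-5. *Cldn3* also went with *Cldn23*, with a Pearson's r of 0.671 (permutation p 0.0322, adjusted 0.177) and a Spearman's rho of 0.867 (permutation p 0.00221, adjusted 0.0405), and r was 0.658 without the same mice. Of the 55 relations 6 had an adjusted p of r under 0.05 and 3 of rho.

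*Cldn4* (ENSMUSG00000047501, chromosome 5, 134973973 to 134975788 on the minus strand), a sealing claudin of the surface epithelium, was more variable, at 127, 81.2, 92.01, 94.1 and 26.3 CPM in DSS-1 to DSS-5 and 49.1, 64.8, 87.6, 124 and 75.3 CPM in ceAF-1 to ceAF-5. DSS-5 was by far the lowest, DSS-1 and ceAF-4 were the highest, and the groups overlapped. Its log2 fold change was −0.07 (standard error 0.36, unadjusted p 0.855), and it turned to 0.14 without DSS-1. *Cldn23* (ENSMUSG00000055976, chromosome 8, 36291866 to 36293713 on the minus strand), a claudin of differentiated colonocytes, was at 46.9, 58.5, 65.7, 63.8 and 22.4 CPM in DSS-1 to DSS-5 and 65.6, 60.0, 60.1, 55.4 and 38.2 CPM in ceAF-1 to ceAF-5. It too was lowest in DSS-5, ceAF-5 was the next lowest, and the other 8 mice lay close together. Its log2 fold change was 0.12 (standard error 0.26, unadjusted p 0.659), and −0.06 without DSS-5.

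*Cldn8* (ENSMUSG00000050520, chromosome 16, 88357716 to 88360071 on the minus strand), a sealing claudin that is strong in the distal colon, varied most of all members, at 51.6, 45.3, 43.3, 65.1 and 152 CPM in DSS-1 to DSS-5 and 6.18, 111, 69.3, 20.9 and 67.9 CPM in ceAF-1 to ceAF-5. DSS-5 and ceAF-2 were high, ceAF-1 and ceAF-4 were low, and the remaining mice of both groups lay between them. The highest mouse exceeded the lowest 24.6-fold, and the SD of its log2 CPM over all mice was 1.30, above 97.9% of the 11541 tested genes with a mean of at least 5 CPM. Its log2 fold change was −0.37 (standard error 0.63, 95% interval −1.76 to 1.01), with an unadjusted p of 0.565 and a Benjamini-Hochberg adjusted p of 0.946 in edgeR's quasi-likelihood test, and without DSS-5 it turned to 0.12. *Cldn1* (ENSMUSG00000022512, chromosome 16, 26175392 to 26190591 on the minus strand), a sealing claudin with little RNA here, was at 1.51, 1.30, 1.92, 1.34 and 1.80 CPM in DSS-1 to DSS-5 and 0.382, 2.41, 2.96, 0.776 and 1.81 CPM in ceAF-1 to ceAF-5. As in *Cldn8*, ceAF-1 and ceAF-4 were the lowest, while ceAF-3 and ceAF-2 were the highest. Its log2 fold change was 0.10 (standard error 0.45, unadjusted p 0.834), and −0.21 without ceAF-3.

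To compare pore-forming with sealing claudins, the mean log2 CPM of *Cldn2* and *Cldn15* minus that of the 6 sealing claudins was taken in each mouse. This log2 difference was −0.58, 0.51, 0.02, 0.10 and 0.40 in DSS-1 to DSS-5 and 1.18, −0.31, −0.07, 0.68 and 0.15 in ceAF-1 to ceAF-5. Both ends of the range were set by mouse 1 of a group, with DSS-1 the lowest and ceAF-1 the highest, and the groups overlapped. The mean was 0.09 ± 0.42 in DSS mice and 0.33 ± 0.60 in ceAF mice (SD, n = 5), a difference of 0.24, which is smaller than either SD. It was 0.07 without DSS-1, 0.02 without ceAF-1 and −0.14 without both. With *Cldn1* and *Cldn8* left out of the sealing claudins, an alternative chosen after seeing the data, it was 0.06. No p is given for this score.

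On the length-scaled scale the pore-forming claudins were a small share. *Cldn2* and *Cldn15* together made up 4.80, 8.75, 6.99, 6.61 and 8.07% of the summed RPKM of the 8 claudins in DSS-1 to DSS-5 and 7.90, 6.04, 7.29, 9.24 and 7.91% in ceAF-1 to ceAF-5. DSS-1 was the lowest and ceAF-4 the highest, and the other mice of both groups were mixed. The group means were 7.04 ± 1.52% and 7.68 ± 1.16% (SD, n = 5). Of the pore-forming claudins 0 of 2 had less RNA with ceAF (median log2 fold change 0.08, from −0.04 without DSS-1 to 0.18 without DSS-2), and of the sealing claudins 4 of 6 had less (median −0.04, from −0.08 without ceAF-3 to 0.03 without DSS-1), beside a median of 0.01 over all genes tested. Without DSS-1 both pore-forming claudins were lower and 3 of the 6 sealing claudins were, and the sealing median changed sign in other such fits as well.

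The spread of *Cldn8* between mice went with *Hoxb13*, but not with every gene of the posterior *Hox* list. This homeobox gene of the most posterior gut, the one of its list with the highest RPKM, was at 76.3, 95.2, 93.0, 112 and 206 CPM in DSS-1 to DSS-5 and 6.18, 215, 149, 10.2 and 185 CPM in ceAF-1 to ceAF-5. Like *Cldn8*, it was low in ceAF-1 and ceAF-4 and high in DSS-5 and ceAF-2. Over the 10 mice, for *Hoxb13* and *Cldn8*, Pearson's r was 0.942 (permutation p 0.00001, adjusted 0.00055) and Spearman's rho 0.939 (permutation p 0.00019, adjusted 0.00522), where the p of r is the smallest that 100000 permutations can give. Without ceAF-1 and ceAF-4, the mice farthest from the median of *Hoxb13*, r was 0.858, so the relation did not rest on them. Of the *Hox* genes only *Hoxb13* was entered in these relations, and the adjusted values do not count that choice. *Hoxb13* itself did not pass the test between the groups (log2 fold change −0.04, standard error 0.79, unadjusted p 0.957, edgeR's quasi-likelihood test).

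*Cldn15* ran the other way. It was high in ceAF-1 and ceAF-4, where *Cldn8* and *Hoxb13* were low, and for *Hoxb13* and *Cldn15*, Pearson's r was −0.764 (permutation p 0.00404, adjusted 0.037) and Spearman's rho −0.733 (permutation p 0.0202, adjusted 0.185). Without ceAF-1 and ceAF-4 that r was −0.508. Between *Cldn8* and *Cldn15*, Pearson's r was −0.794 (permutation p 0.00209, adjusted 0.0239) and Spearman's rho −0.830 (permutation p 0.00498, adjusted 0.0548), and r was −0.612 without the same 2 mice. Between *Cldn1* and *Cldn8*, Pearson's r was 0.881 (permutation p 0.00217, adjusted 0.0239) and Spearman's rho 0.697 (permutation p 0.0298, adjusted 0.205), and r fell to 0.367 without ceAF-1 and ceAF-4, so that relation rests on them. For *Hoxb13* and *Cldn1*, Pearson's r was 0.913 (permutation p 0.00088, adjusted 0.0198) and Spearman's rho 0.709 (permutation p 0.0276, adjusted 0.205), and r fell to 0.550 without the same mice.

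*Hoxb6*, a more anterior *Hox* gene named only after its values were seen, was at 1.27, 25.3, 36.6, 22.4 and 0.960 CPM in DSS-1 to DSS-5 and 91.0, 0.846, 17.4, 2.98 and 0.880 CPM in ceAF-1 to ceAF-5. It was highest in ceAF-1 and under 2 CPM in DSS-1, DSS-5, ceAF-2 and ceAF-5, and in ceAF-4, the next lowest mouse in *Cldn8*, it was low as well.

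As a whole the *Hox* lists were less uniform. Of the 8 posterior *Hox* genes 7 were tested, of which 2 had less RNA with ceAF and 5 had more (median log2 fold change 0.18, from 0.03 without DSS-3 to 0.44 without ceAF-1). Their summed level was 227, 229, 183, 261 and 345 CPM in DSS-1 to DSS-5 and 28.6, 506, 407, 205 and 331 CPM in ceAF-1 to ceAF-5, and *Hoxd13*, the most posterior gene of its cluster, was at 4.23, 8.74, 7.12, 1.47 and 10.5 CPM in DSS-1 to DSS-5 and 7.25, 121, 109, 0 and 4.95 CPM in ceAF-1 to ceAF-5. ceAF-2 and ceAF-3 stood far above all other mice in *Hoxd13* and ceAF-4 was at 0, which differs from the order of *Cldn8*. In ceAF-4, where *Cldn8* was low, *Hoxa10* (92.3 CPM) and *Hoxa11* (14.5 CPM) were the highest of all mice and *Hoxa13* was at 88.4 CPM, and these genes were named after their values were seen. In ceAF-1, the mouse lowest in *Cldn8*, *Hoxa10* (4.81 CPM), *Hoxa11* (1.14 CPM) and *Hoxa13* (3.13 CPM) were instead the lowest of all mice. *Hoxd13* was the only gene of this list at an unadjusted p under 0.05 (log2 fold change 2.91, standard error 1.23, unadjusted p 0.0369), with 0 when DSS-1, DSS-2, DSS-4, ceAF-2 or ceAF-3 was left out and 3 without ceAF-4. Of the 7 anterior *Hox* genes, 2 had less RNA with ceAF and 5 had more (median log2 fold change 0.14, from −1.34 without ceAF-1 to 0.50 without DSS-3), and their summed level was 99.3, 125, 146, 146 and 58.5 CPM in DSS-1 to DSS-5 and 239, 62.3, 102, 152 and 88.5 CPM in ceAF-1 to ceAF-5. Without ceAF-1, 4 of the anterior genes were lower and 3 higher. *Hoxa7*, the one with the highest RPKM, was highest in ceAF-4 (104 CPM) and lowest in ceAF-1 (19.0 CPM), and *Hoxa6*, which had the smallest p of the list, was at log2 fold change 0.58, standard error 0.54, unadjusted p 0.312. The colon segment of each piece is not given in the sources used here, and the part of position in the differences between mice was not tested. With the mean log2 level of the posterior *Hox* genes as a covariate, chosen after seeing the data, the log2 fold change of *Cldn8* was −0.72 (unadjusted p 0.149) and that of *Ocln* 0.24 (unadjusted p 0.0395).

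**Figure D3:**
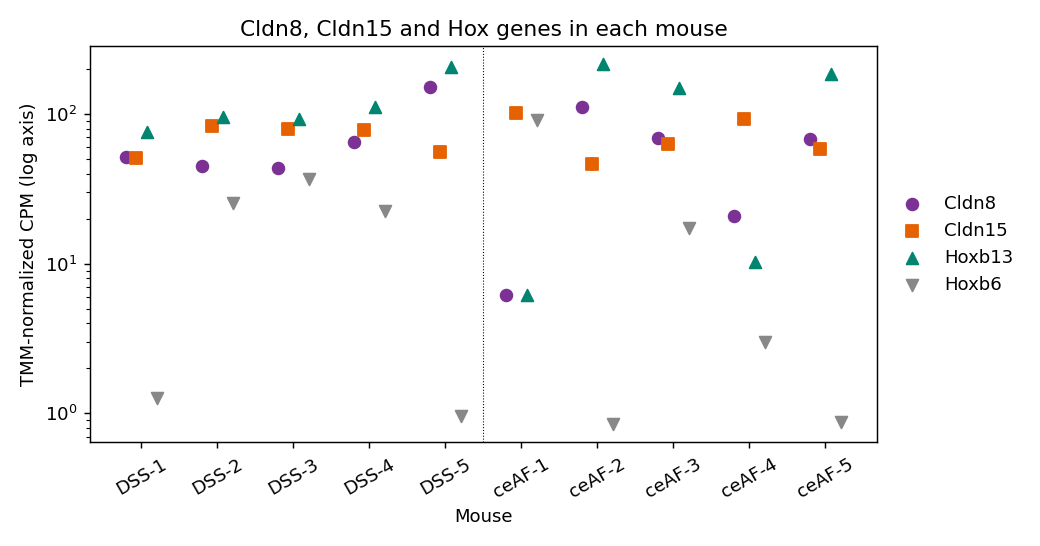
TMM-normalized CPM (log axis) of *Cldn8*, *Cldn15*, *Hoxb13* and *Hoxb6* in each mouse, with 1 point per gene and mouse and a dotted line between the groups. *Cldn8* and *Hoxb13* are lowest together in ceAF-1 (6.18 and 6.18 CPM), where *Cldn15* and *Hoxb6* are highest.

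For each member, genes were taken from the 3 most like it over the 10 mice by Pearson's r of log2 CPM, among 11499 tested genes with a symbol and a mean of at least 5 CPM. Both r and Spearman's rho are given in brackets without a p, since the genes were picked for a high r. For the sealing claudins these were *Gsn* (0.973, 0.976), *Thbs4* (0.970, 0.988) and *Pla2g2f* (0.970, 0.891) for *Cldn8*, and *Lsr* (0.967, 0.842), *Trf* (0.965, 0.964) and *Thbs4* (0.943, 0.709) for *Cldn1*. *Lsr*, which encodes angulin-1, a receptor of the junctions where 3 cells meet, was lowest in ceAF-1 at 15.7 CPM. *Thbs4*, near both claudins, was at 198, 147, 141, 155 and 299.6 CPM in DSS-1 to DSS-5 and 22.7, 297, 277, 75.2 and 246 CPM in ceAF-1 to ceAF-5. The abundant claudins had *Sectm1b* (0.987, 0.988), *Clec2d* (0.969, 0.939) and *H2-Q2* (0.958, 0.927) for *Cldn3*, and *Cystm1* (0.947, 0.867), *Ginm1* (0.942, 0.855) and *Tspan8* (0.940, 0.867) for *Cldn7*, where *Tspan8* is an epithelial tetraspanin. For *Cldn4* they were *Pla2r1* (0.960, 0.939), *Tbx2* (0.929, 0.976) and *Zfp36l2* (0.900, 0.830), and for *Cldn23* *Pls1* (0.974, 0.818), *Gm11775* (0.948, 0.745) and *Abca12* (0.947, 0.818). *Pls1* encodes a bundling protein of the brush border. The pore-forming claudins had *Ppargc1b* (0.933, 0.818), *Nrarp* (0.930, 0.806) and *Coa7* (0.916, 0.758) for *Cldn2*, and *Crot* (0.942, 0.903) and *Faah* (0.941, 0.976) for *Cldn15*. For *Ocln* they were *Pfkfb2* (0.965, 0.915) and *Abr* (0.951, 0.976). *Tjp1* had *Akap9* (0.940, 0.903) and *Mpzl2* (0.932, 0.842).

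Other claudins had little RNA in this tissue, except for *Cldn12*. Of 20 other claudins, 17 were in the table, 3 had enough counts to be tested and 4 had 0 counts in all mice. *Cldn12*, the one with the highest RPKM, was at 69.1 ± 14.5 CPM in DSS mice and 70.3 ± 7.21 CPM in ceAF mice (SD, n = 5). *Cldn5*, the claudin of blood vessel endothelium, was at 2.09, 0.800, 1.86, 0.833 and 1.02 CPM in DSS-1 to DSS-5 and 0.0763, 0.586, 0.329, 0.716 and 0.715 CPM in ceAF-1 to ceAF-5, from 154 counts over all mice. The groups did not overlap, all ceAF mice being lower, with the closest values 0.800 in DSS-2 and 0.716 in ceAF-4 (log2 fold change −1.41, standard error 0.47, unadjusted p 0.0127, adjusted p 0.656, edgeR's quasi-likelihood test). The 10 endothelial markers all had less RNA with ceAF (median log2 fold change −0.35, from −0.59 without ceAF-4 to −0.13 without ceAF-1), with 0 at an unadjusted p under 0.05. Without ceAF-4 there were 6, while without ceAF-1 only 8 of the 10 were lower. Their summed level was 179, 104, 106, 138 and 102 CPM in DSS-1 to DSS-5 and 45.9, 87.3, 97.6, 178 and 81.8 CPM in ceAF-1 to ceAF-5, with *Plvap* the most abundant per length and of the smallest p (log2 fold change −0.51, standard error 0.34, unadjusted p 0.158), and their part in the difference of *Cldn5* was not tested.

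Among 10 other membrane proteins of the junction 9 were tested, of which 4 had less RNA with ceAF and 5 had more (median log2 fold change 0.03, from −0.08 without ceAF-1 to 0.10 without ceAF-5), and 0 passed an unadjusted p of 0.05. The most abundant per length was *F11r*, which encodes the adhesion molecule JAM-A (log2 fold change −0.01, standard error 0.17, unadjusted p 0.947), and the smallest p was that of *Jam3* (log2 fold change −0.40, standard error 0.26, unadjusted p 0.153). Of 17 scaffold and polarity genes, 7 had less RNA with ceAF and 10 had more (median log2 fold change 0.04, from 0.03 without ceAF-4 to 0.10 without DSS-5). *Cgn*, which encodes cingulin at the inner face of the junction, was at 187, 225, 193, 241 and 211 CPM in DSS-1 to DSS-5 and 247, 243, 272, 241 and 239 CPM in ceAF-1 to ceAF-5. As in *Ocln*, the ceAF mice lay high, but DSS-4 was level with the lower ceAF mice, and its log2 fold change was 0.23 (standard error 0.10, unadjusted p 0.0335), the only one of the 17 under 0.05. None of the 17 was higher under 0.05 when DSS-1, DSS-3 or ceAF-3 was left out, and 2 were without DSS-5 or without ceAF-1. *Tjp3*, which encodes ZO-3 and is the most abundant of them per length, had log2 fold change 0.18, standard error 0.10, unadjusted p 0.0990.

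Of 11 regulators of the junction, 3 had less RNA with ceAF and 8 had more (median log2 fold change 0.10, from 0.08 without DSS-3 to 0.15 without ceAF-5). *Wnk4*, a kinase that acts on paracellular chloride passage, was at 28.4, 29.1, 23.0, 38.9 and 22.3 CPM in DSS-1 to DSS-5 and 37.5, 37.3, 33.7, 46.4 and 40.5 CPM in ceAF-1 to ceAF-5. The ceAF mice were high and only DSS-4 reached their range (log2 fold change 0.46, standard error 0.16, unadjusted p 0.0134, adjusted p 0.656, edgeR's quasi-likelihood test). *Ybx3*, the most abundant of them per length, is a transcription factor that binds ZO-1 (log2 fold change 0.09, standard error 0.12, unadjusted p 0.465). Of 14 genes of adherens junctions and desmosomes, 6 had less RNA with ceAF and 8 had more (median log2 fold change 0.03, from −0.01 without ceAF-4 to 0.09 without ceAF-5), and 0 passed an unadjusted p of 0.05. They included *Cdh1*, E-cadherin (log2 fold change −0.01, standard error 0.15, unadjusted p 0.943), and *Dsg2*, a desmosomal cadherin (log2 fold change 0.33, standard error 0.16, unadjusted p 0.0618). Of 15 transcription factors that act on claudin genes, 9 had less RNA with ceAF and 6 had more (median log2 fold change −0.12, from −0.12 without DSS-5 to −0.03 without ceAF-5), and 0 passed, the smallest p being that of *Zeb1* (log2 fold change −0.40, standard error 0.21, unadjusted p 0.0749) and the most abundant per length *Klf4* (log2 fold change −0.12, standard error 0.19, unadjusted p 0.547).

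Epithelial RNA was present in all mice, in amounts that differed from mouse to mouse. The 10 general epithelial markers summed to 15536, 17067, 16624, 19141 and 13734 CPM in DSS-1 to DSS-5 and 17923, 18288, 17636, 16000.3 and 16402 CPM in ceAF-1 to ceAF-5. DSS-5 was the lowest and DSS-4 the highest, and 3 had less RNA with ceAF and 7 had more (median log2 fold change 0.08, from 0.02 without DSS-5 to 0.15 without DSS-4), with 0 at an unadjusted p under 0.05. *Krt8*, the most abundant per length, had log2 fold change 0.14, standard error 0.17, unadjusted p 0.425, and *Elf3*, of the smallest p, log2 fold change −0.33, standard error 0.15, unadjusted p 0.0523. With the mean log2 level of these markers as a covariate the log2 fold change of *Ocln* was 0.22 (unadjusted p 0.0471). In that fit *Cldn23* went from 0.12 to 0.02, *Cldn8* from −0.37 to −0.16 and *Cldn15* from 0.06 to 0.01. *Cldn3*, *Cldn4* and *Cldn7* went further down, from −0.01, −0.07 and −0.08 to −0.05, −0.11 and −0.13.

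Other epithelial lists differed from mouse to mouse. Of 10 surface colonocyte genes 5 had less RNA with ceAF and 5 had more (median log2 fold change 0.03, from −0.07 without DSS-5 to 0.10 without ceAF-4), with 0 under 0.05, a summed level of 8789, 11904, 14102, 14854 and 7780.3 CPM in DSS-1 to DSS-5 and 18174, 10252, 10732, 7497 and 8770.1 CPM in ceAF-1 to ceAF-5, and *Car4* of the smallest p (log2 fold change −0.53, standard error 0.40, unadjusted p 0.207). *Car1*, the most abundant per length, was at 1118, 4653, 7774, 4956 and 115 CPM in DSS-1 to DSS-5 and 11922, 814, 3344, 753 and 505 CPM in ceAF-1 to ceAF-5, high in ceAF-1 and low in DSS-5. Of 8 goblet cell genes 7 had less RNA with ceAF and 1 had more (median log2 fold change −0.40, from −0.49 without ceAF-4 to −0.16 without ceAF-1), their summed level was 16953, 13057, 12218, 17811 and 11803 CPM in DSS-1 to DSS-5 and 5424, 11661, 12716, 16431 and 11189 CPM in ceAF-1 to ceAF-5, *Tff3* had log2 fold change −0.67, standard error 0.29, unadjusted p 0.0386 and *Zg16*, the most abundant per length, log2 fold change −0.54, standard error 0.35, unadjusted p 0.147. Of 7 tested crypt base genes 3 had less RNA with ceAF and 4 had more (median log2 fold change 0.20, from 0.10 without DSS-1 to 0.34 without ceAF-1), their summed level was 158, 226, 214, 211 and 247 CPM in DSS-1 to DSS-5 and 187, 233, 229, 196 and 233 CPM in ceAF-1 to ceAF-5, *Axin2* had log2 fold change 0.64, standard error 0.29, unadjusted p 0.0478 and *Lrig1*, the most abundant per length, log2 fold change 0.20, standard error 0.22, unadjusted p 0.373. All 10 proliferation genes were higher with ceAF (median log2 fold change 0.19, from 0.11 without ceAF-5 to 0.38 without ceAF-1), with 0 under 0.05, a summed level of 340.2, 442, 379, 400.2 and 424 CPM in DSS-1 to DSS-5 and 249, 473, 513, 480.1 and 664 CPM in ceAF-1 to ceAF-5, *Mki67* of the smallest p (log2 fold change 0.44, standard error 0.25, unadjusted p 0.110) and *Pcna* the most abundant (log2 fold change 0.14, standard error 0.14, unadjusted p 0.349). Without ceAF-1, 7 of the 10 proliferation genes were higher at an unadjusted p under 0.05, while without ceAF-5 only 8 of the 10 were higher at all. Squamous genes, which would mark anal skin, were low except for *Sprr1a*, which held most of their sum at a mean of 35.9 RPKM: of 10, 4 were tested, 1 had 0 counts, their sum was 40.6, 29.9, 28.1, 56.2 and 24.5 CPM in DSS-1 to DSS-5 and 14.9, 22.6, 26.1, 58.9 and 35.1 CPM in ceAF-1 to ceAF-5, *Sprr1a* had log2 fold change −0.24, standard error 0.38, unadjusted p 0.531 and *Krt14* log2 fold change 0.70, standard error 0.75, unadjusted p 0.370. These calls at an unadjusted p rested on few mice: 0 goblet cell genes were under 0.05 when DSS-1, DSS-4, ceAF-1, ceAF-2 or ceAF-3 was left out, and a crypt base gene was higher under 0.05 only without DSS-2 or without ceAF-4. ceAF-1 thus had the least goblet cell, proliferation and endothelial RNA and the most *Car1*. Its share of mitochondrial counts was 9.66%, beside 5.64, 4.53, 7.24 and 9.74% in ceAF-2 to ceAF-5 and 5.34, 5.34, 5.45, 6.54 and 5.06% in DSS-1 to DSS-5, and its TMM factor of 0.894 was the lowest. The part of RNA quality or makeup in the values of the claudins was not tested.

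Many inflammatory genes, among them *Il1b* and the neutrophil genes, were highest in DSS-1, and none passed at an adjusted p under 0.05 in edgeR's test. Of 12 cytokine and growth factor genes known to act on the barrier, 8 were tested, of which 7 had less RNA with ceAF and 1 had more (median log2 fold change −0.49, from −0.60 without DSS-3 to −0.21 without DSS-1). *Ifng*, which encodes interferon-γ, was at 2.26, 3.50, 3.17, 4.74 and 1.08 CPM in DSS-1 to DSS-5 and 0.839, 1.69, 0.823, 0.119 and 0.440 CPM in ceAF-1 to ceAF-5, and the groups overlapped only through DSS-5 (log2 fold change −1.92, standard error 0.56, unadjusted p 0.00538). Without DSS-1, 1 gene of the list was under 0.05 in place of 2. *Il1b* was at 597, 13.3, 61.1, 18.1 and 11.4 CPM in DSS-1 to DSS-5 and 1.68, 19.98, 17.4, 9.01 and 2.53 CPM in ceAF-1 to ceAF-5. DSS-1 set its group's mean (log2 fold change −3.79, standard error 1.25, unadjusted p 0.0112), and the summed level of the list was 776, 96.5, 133, 144 and 104 CPM in DSS-1 to DSS-5 and 39.4, 145, 145, 103 and 65.4 CPM in ceAF-1 to ceAF-5. All 8 neutrophil genes were lower with ceAF (median log2 fold change −3.97, from −4.46 without ceAF-4 to −1.72 without DSS-1), with 7 at an unadjusted p under 0.05. DSS-1 set much of this, and without it 2 were at an unadjusted p under 0.05. Their summed level was 1695, 17.5, 185, 21.5 and 72.6 CPM in DSS-1 to DSS-5 and 2.52, 15.4, 16.2, 47.2 and 20.5 CPM in ceAF-1 to ceAF-5. *S100a9*, the most abundant per length, had log2 fold change −5.15, standard error 1.504, unadjusted p 0.00568, *Trem1* log2 fold change −4.96, standard error 1.39, unadjusted p 0.00439, *Clec4d* log2 fold change −3.95, standard error 1.25, unadjusted p 0.00903, *Retnlg* log2 fold change −5.72, standard error 1.82, unadjusted p 0.00922, *Cxcr2* log2 fold change −3.94, standard error 1.36, unadjusted p 0.0143 and *S100a8* log2 fold change −3.98, standard error 1.38, unadjusted p 0.0146.

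Markers of other cells of the wall were lower with ceAF on average, but single mice set much of this. All 10 leukocyte genes were lower with ceAF (median log2 fold change −1.06, from −1.23 without DSS-5 to −0.54 without DSS-1), with 6 under 0.05, and 8 were lower without DSS-1, 5 of them under 0.05. Their summed level was 698, 301, 326, 311 and 156 CPM in DSS-1 to DSS-5 and 109, 229, 254, 111 and 239 CPM in ceAF-1 to ceAF-5, the most abundant per length was *Cd52* (log2 fold change −1.07, standard error 0.36, unadjusted p 0.0130), and the others were *Cd3e* (log2 fold change −1.19, standard error 0.33, unadjusted p 0.00442), *Coro1a* (log2 fold change −1.25, standard error 0.42, unadjusted p 0.0117), *Cd2* (log2 fold change −1.22, standard error 0.42, unadjusted p 0.0138), *Laptm5* (log2 fold change −1.06, standard error 0.37, unadjusted p 0.0161) and *Itgam* (log2 fold change −1.30, standard error 0.58, unadjusted p 0.0461). All 10 fibroblast genes were lower (median −0.19, from −0.36 without ceAF-4 to −0.02 without DSS-1), with 0 under 0.05 and a sum of 1225, 617, 599, 581 and 608 CPM in DSS-1 to DSS-5 and 217, 779, 734, 933 and 544 CPM in ceAF-1 to ceAF-5, *Lum* having the smallest p (log2 fold change −0.91, standard error 0.43, unadjusted p 0.0553) and *Col3a1* the highest RPKM (log2 fold change −0.02, standard error 0.39, unadjusted p 0.957). All 10 smooth muscle genes were lower (median −0.17, from −0.36 without ceAF-2 to −0.07 without ceAF-3), with 0 under 0.05 and a sum of 2571, 2319, 1670.0, 1407 and 2914 CPM in DSS-1 to DSS-5 and 1324, 3123, 1274, 1559 and 2492 CPM in ceAF-1 to ceAF-5, *Myocd* having the smallest p (log2 fold change −0.75, standard error 0.44, unadjusted p 0.114) and *Actg2* the highest RPKM (log2 fold change −0.32, standard error 0.34, unadjusted p 0.373). In the fibroblast sums ceAF-2, ceAF-3 and ceAF-4 lay above DSS-2 to DSS-5, and DSS-1 was the highest and ceAF-1 the lowest of all. Without DSS-1, and likewise without ceAF-1, 5 fibroblast genes were lower and 5 higher. Of the smooth muscle genes 6 were lower without ceAF-1 or without ceAF-3, and 7 without DSS-5. DSS-1 was the mouse with the most neutrophil, leukocyte and fibroblast RNA and also the one with the least *Ocln*, *Tjp1* and *Cldn2*, and the part of inflammation in these levels was not tested. Without DSS-1 the log2 fold changes were 0.19 for *Ocln*, 0.18 for *Tjp1* and −0.06 for *Cldn2*.

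The sequence before the start of the claudin genes is shown for the pore-forming pair, which the comparison is about, and for *Cldn3* and *Cldn7*, which moved together over the mice. RefSeq promoters of GRCm38.p6 were matched by symbol to 8 of the 10 members, with none for *Cldn8* and *Cldn23*, and the 250 bases before each start are printed. Both strands were searched for the letters TTTATG and TTTATT, which Cdx factors bind, TATAAA, the TATA box, CCACCC, bound by Klf factors, GGGCGG, bound by Sp1, and CAGGTG, the E-box of Snail and Zeb factors. Of all 32851 promoters, trimmed to the same length, 10.8% held TTTATG, 18.1% TTTATT, 12.4% TATAAA, 28.1% CCACCC, 32.7% GGGCGG and 17.2% CAGGTG. Capitals mark the matches, on either strand, and matches of CCACCC overlap by 1 base in *Cldn3*.
Cldn2, chrX:139800558-139800807, plus strand: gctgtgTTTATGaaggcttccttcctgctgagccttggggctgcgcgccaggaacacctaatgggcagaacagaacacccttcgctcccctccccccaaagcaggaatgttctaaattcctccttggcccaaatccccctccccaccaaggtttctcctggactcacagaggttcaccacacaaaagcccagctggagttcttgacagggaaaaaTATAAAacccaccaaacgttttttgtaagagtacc
Cldn15, chr5:136967619-136967868, plus strand: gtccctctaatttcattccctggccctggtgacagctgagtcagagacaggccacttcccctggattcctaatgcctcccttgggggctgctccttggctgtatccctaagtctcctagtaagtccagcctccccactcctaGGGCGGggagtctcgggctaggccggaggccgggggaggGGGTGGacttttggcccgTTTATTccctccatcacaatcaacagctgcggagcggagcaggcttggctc
Cldn3, chr5:134985964-134986213, plus strand: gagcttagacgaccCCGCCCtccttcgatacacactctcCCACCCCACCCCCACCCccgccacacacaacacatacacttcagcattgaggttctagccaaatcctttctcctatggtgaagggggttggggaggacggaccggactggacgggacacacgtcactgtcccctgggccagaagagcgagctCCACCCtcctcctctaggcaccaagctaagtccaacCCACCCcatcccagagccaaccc
Cldn7, chr11:69964529-69964778, plus strand: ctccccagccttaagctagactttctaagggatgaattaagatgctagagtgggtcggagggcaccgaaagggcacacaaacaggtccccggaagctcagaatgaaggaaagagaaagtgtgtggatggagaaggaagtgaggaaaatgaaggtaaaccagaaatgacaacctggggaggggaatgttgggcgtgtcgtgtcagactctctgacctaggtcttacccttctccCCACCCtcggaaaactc
Cldn7, chr11:69965171-69965420, plus strand: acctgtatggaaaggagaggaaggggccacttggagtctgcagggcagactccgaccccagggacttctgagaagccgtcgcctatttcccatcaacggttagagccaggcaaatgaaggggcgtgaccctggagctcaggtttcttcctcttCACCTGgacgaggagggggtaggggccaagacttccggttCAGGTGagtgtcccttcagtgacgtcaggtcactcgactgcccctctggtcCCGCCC
*Cldn2* held TTTATG once and TATAAA once, 35 bases before its start, and *Cldn15* held TTTATT 51 bases before its start together with GGGCGG and CCACCC. *Cldn3* held CCACCC 5 times and GGGCGG once, and of the *Cldn7* promoters the upstream one held CCACCC once and the other held GGGCGG once and CAGGTG on both strands. A match says only that these letters are there.

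Position in the genome could mix the reads of some members with those of a neighbour, since it is not stated whether counting used the strand. *Cldn3* overlaps *Wbscr25* on the other strand by 39 bases, but that gene had 49 counts over all mice. *Tjp1* overlaps *Gm44795* and ENSMUSG00000121090 on the other strand and *Gm44794* on the same strand, which had 0, 41 and 1 counts over all mice. *Fis1* lies 382 bases from *Cldn15* on the same strand and had 13895 counts, and *Elp5* lies 337 bases from *Cldn7* on the other strand and had 3399 counts. *Cldn4* and *Cldn3* lie near each other on chromosome 5, yet across the mice their r was −0.067 and rho −0.103, with permutation p-values of 0.854 and 0.785.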

How the data were processed

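RNA sequencing of colon tissue was taken as raw counts per gene deposited by the authors for 10 mice, 5 per group, and the deposited FPKM were used for alternatives. Per the submitters' processing notes, reads were trimmed with cutadapt 1.9.1 and aligned with HISAT2 2.2.1. The counting program, genome build and annotation are not given in the sources used here. Every column was matched to a mouse by its label. Counts divided by length and library size gave the deposited FPKM within 1% in all 131360 values compared.

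Counts were filtered with filterByExpr (minimum count 10), normalized by TMM and tested with edgeR 4.0.16 (quasi-likelihood, Benjamini-Hochberg adjustment over the 16545 genes tested) in R 4.3.3. The 2639 genes without a symbol stayed in the tests. CPM and RPKM are TMM-normalized, and log2 CPM uses a prior count of 1. Alternatives used upper quartile normalization, DESeq2 1.42.0 with and without the filter, edgeR with no filter, 1 CPM in 5 libraries, limma 3.58.1 on log2 FPKM, a block, covariates and leaving out each mouse. The analysis was tested on simulated data, with changes larger than any seen in the members, so this check does not cover changes of their size. Promoters were read with Python 3.11.15 and figures drawn with matplotlib 3.10.9.

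Members and gene lists were chosen with earlier results of these data known. From each list the text names each gene at an unadjusted p under 0.05 (at most 6, smallest p first), the gene with the highest RPKM and, where none passes, the gene with the smallest p, and it gives every member. The 3 genes most like each member were those with the highest Pearson's r of log2 CPM among tested genes with a symbol and a mean of at least 5 CPM. Some of these genes are not reported here.

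Libraries were checked for copies by a chi-square of their counts, which per gene was 13.2 to 166 in 45 pairs. Reads that fit near-identical paralogs or overlapping genes may be counted in either or in none, and whether counting used the strand is not known.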

Additional observations from a re-analysis of the deposited data

Results flagged for a closer look

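Of 218 groups of 5 mice screened (a gene or summed list in a treatment group), 23 had 1 mouse far from the rest. In these, the highest or lowest mouse had a gap to the next, divided by the whole range, above 0.71. In the 23 it was always the highest mouse. Chance gives about 1 in 20 such groups when either end counts and the values are normally distributed. Most values screened were CPM on a linear scale, the groups share the same mice and many genes vary together. The 23 therefore cannot be set against that rate. Of the 20 groups of the members 1 was among them. That was *Cldn8* in the DSS group, where DSS-5 was at 152 CPM and the next mouse at 65.1 CPM (gap over range 0.8). *Hoxb6*, *Hoxa10*, *Hoxa11* and *Hoxa13*, named after their values were seen, were not screened.

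DSS-1 was the highest mouse in 15 of the 23. Among these were the neutrophil genes *Trem1* (0.918), *S100a9* (0.885), *Clec4d* (0.908), *Retnlg* (0.935), *Cxcr2* (0.929) and *S100a8* (0.887), their summed level (0.9), *Itgam* (0.867), *Il1b* (0.915) and the summed cytokine list (0.93). The others were *Lum* (0.756), *Col3a1* (0.809), the summed fibroblast list (0.944), *Jam3* (0.859) and *Zeb1* (0.809).

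DSS-5 stood apart in *Hoxb13* (0.728) and *Pla2g2f* (0.747). In the ceAF group ceAF-1 stood apart in *Car1* (0.751) and *H2-Q2* (0.718), ceAF-3 in *Cgn* (0.749), and ceAF-4 in *Krt14* (0.86) and *Retnlg* (0.928). Among the genes not screened, ceAF-1 was far above the other ceAF mice in *Hoxb6* (91.0 CPM, the next 17.4 CPM). It was far below them in *Hoxa13* (3.13 CPM, the next 80.6 CPM).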

How the results depend on the processing

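No alternative brought a member to an adjusted p under 0.05 (edgeR, limma or DESeq2), the smallest member value being 0.414. Over 21 alternatives, 181 of 210 member log2 fold changes kept their sign and 29 turned, all of the latter in claudins. *Ocln* was higher in the ceAF group in all, at 0.19 to 0.29, with an unadjusted p under 0.05 in 11 of 21, and *Tjp1* at 0.16 to 0.31. The count of genes at an adjusted p under 0.05 was 31 with DESeq2 without the filter on low counts and 0 to 3 when each mouse was left out, 3 being without DSS-5. At an unadjusted p it was 1733 without a filter on low counts, which tests more genes, and 712 to 1872 when each mouse was left out. Members at an unadjusted p numbered 0 without the filter and with limma-trend on FPKM at either pseudocount, and 0 to 2 when each mouse was left out. The cause was not tested.

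Signs turned in *Cldn3* with a filter of at least 1 CPM in 5 libraries (0.0039), *Cldn4* with limma-trend (pseudocount 1 0.0016, 0.1 0.0054) and *Cldn1* with pseudocount 0.1 (−0.11). When each mouse was left out, the log2 fold change ran from −0.21 (without ceAF-3) to 0.34 (ceAF-1) in *Cldn1*, −0.058 (without DSS-1) to 0.21 (DSS-2) in *Cldn2*, −0.10 (without ceAF-1) to 0.054 (ceAF-4) in *Cldn3*, −0.28 (without DSS-5) to 0.14 (DSS-1) in *Cldn4*, −0.16 (without ceAF-1) to 0.016 (DSS-4) in *Cldn7*, −0.78 (without ceAF-2) to 0.12 (DSS-5) in *Cldn8*, −0.091 (without ceAF-1) to 0.20 (ceAF-2) in *Cldn15* and −0.058 (without DSS-5) to 0.24 (DSS-3) in *Cldn23*. The cause was not tested.

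With the mouse number as a block, 694 genes were at an unadjusted p under 0.05, and *Cldn1* (−0.13) and *Cldn4* (0.025) turned sign. No sign of pairing by the shared numbers was seen: the correlation of same-number mice was −0.249 to 0.286, over 0.1 in 1 of 5, and 1 DSS mouse matched its own number best. Such correlations cannot show that the numbers carry no meaning.

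Chosen after seeing the data were DESeq2 on the genes that pass the filter, with 30 genes at an adjusted p under 0.05 and no sign turned, the posterior *Hox* covariate, which turned *Cldn1* (−0.14) and *Cldn15* (−0.0078), and the fit without both DSS-1 and ceAF-1, which turned *Cldn2* (−0.024), *Cldn4* (0.26) and *Cldn15* (−0.19) and had 0 members at an unadjusted p under 0.05. The gene lists were also set out with each mouse left out after the data had been seen. Pore-forming minus sealing claudins was 0.22 with a prior count of 5, 0.34 with only *Cldn1*, *Cldn3*, *Cldn4* and *Cldn8* as sealing, 0.15 as a log2 ratio of summed RPKM, and 0.02 to 0.40 when each mouse was left out.

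With 5 mice per group, intervals of *Cldn1*, *Cldn4* and *Cldn8* still include a change of more than 1.5-fold in either direction, so the members cannot be called equal. At this depth *Cldn1* has 5 to 54 counts per mouse, which limits its precision, and other claudins with few counts were not tested. Bulk RNA does not show protein, its place at the junction or permeability, and the deposited values do not say which colon segment each mouse gave.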
